A study of Arabidopsis thaliana with 12 samples.

Results

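The fug1-3 mutation was examined in seedlings that carry the gun1-103 allele, by setting 3 libraries of the gun1-103 fug1-3 double mutant (gun1 fug1) against 3 libraries of the gun1-103 single mutant (gun1). These 6 of the series' 12 RNA-seq libraries were chosen by their titles, and they share the gun1-103 allele, so the groups differ in fug1-3. The other 6, the fug1-3 single mutant (fug1) and the wild type Col-0, entered the fits to estimate the spread and to give the fug1-3 difference in plants with wild-type GUN1. All plants were Arabidopsis thaliana seedlings aged 4 d, from seed kept at 4 °C for 2 d, grown on Murashige and Skoog medium with 1% sucrose in 16 h days at 22 °C and 100 µmol m-2 s-1 of light. RNA came from whole seedlings, so fewer cells of a type and less RNA per cell cannot be told apart. Since the labels do not say whether replicates were separate cultures, the p-values measure only how far these samples spread.

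GUN1, a plastid protein with pentatricopeptide repeats, acts in retrograde signalling, by which the state of the plastid sets the expression of nuclear genes. FUG1 is the plastid homologue of bacterial translation initiation factor 2, which brings the initiator transfer RNA to the ribosome. Most plastid proteins are nuclear-encoded, are imported as unfolded precursors through the TOC and TIC complexes, and are folded by stromal chaperones of the Hsp70, Hsp90, chaperonin and small heat shock families. When translation, import or degradation in the plastid is disturbed, plants are known to raise nuclear genes for such chaperones, a response named the plastid unfolded protein response.

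Total counts were 10493894, 8519197 and 11535902 in gun1 fug1 1, 2 and 3, against 10675356, 10292034 and 9614145 in gun1 1, 2 and 3, and 8519197 to 12360838 over the series. The library gun1 fug1 3 stood apart. It had 23881 loci with no count, where the other libraries had 13359 to 16417. The overlapping loci RR3 and AT2G09250 took 31.0% of its counts, against 4.69% and 3.83% in gun1 fug1 1 and 2. Its correlation with its own replicates was 0.73 and 0.72 across genes, which are not independent replicates, where other replicate pairs gave 0.92 to 0.97. Its TMM scaling factor was 0.0723, so that a single read there weighs 1.1997 CPM (read counts scaled to library size), against 0.0396 to 0.136 CPM elsewhere. Calls between gun1 fug1 and gun1 are therefore given with all 12 libraries and again without gun1 fug1 3, which leaves 11, and a value with no fit named beside it comes from all 12. The comparison of fug1 with wild type holds no gun1 fug1 library, but shares their estimate of spread. Values by library are in CPM, in the order of replicates 1, 2 and 3. Differences are log2(gun1 fug1 / gun1) ± standard error (SE). Genes were called where edgeR's quasi-likelihood F test, adjusted over all genes tested after Benjamini and Hochberg, gave a value below 0.05. Among the nuclear genes named here CWLP, GolS1, CKX5, GASA6, EMB3126, HSP93-III, Cpn60beta2, cpHsc70-1, CPN60B, TOC159, PSAN, ALB1, PCAP1, MRD1, AT2G24060, SCO1, cpHsc70-2, CPN20, CLPB3, TOC75-III, HSP101, HSP17.4, RR3, FER1, FER4, AT2G30766 and CP33 overlap another annotated locus, and since strand handling is not stated, reads of such pairs cannot be told apart. Organelle genes were not part of that check. In the plastid genome rps3 (82826 to 83482) and rpl22 (83467 to 83949) overlap each other.

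The mutated genes came first. GUN1 (AT2G31400; chromosome 2, 13386954 to 13390854, minus strand, TAIR10.1) had 7.89, 10.7 and 8.40 CPM in gun1 fug1, against 8.94, 9.44 and 7.20 CPM in gun1. These levels overlapped, with a difference of 0.10 ± 0.22 (adjusted p = 0.849), and both groups lay under the 28.3 ± 3.60 CPM of fug1 and the 34.9 ± 4.73 CPM of wild type (SD, n = 3). FUG1 (AT1G17220; chromosome 1, 5885007 to 5890500, plus strand) had 9.94, 8.45 and 15.6 CPM in gun1 fug1, against 33.8, 17.8 and 13.9 CPM in gun1. The level in gun1 fug1 3 came from 13 reads and lay above gun1 3, and the gun1 libraries themselves spread widely. Its difference was -1.12 ± 0.35 (adjusted p = 0.0876), and -1.24 ± 0.40 without gun1 fug1 3 (adjusted p = 0.103), so FUG1 transcript did not pass the test in the gun1 background. Between fug1 and wild type the FUG1 difference was -2.02 ± 0.33 (adjusted p = 0.00104).

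With all libraries, 475 of 15371 genes tested were called between gun1 fug1 and gun1 (3.09%), 248 higher (1.61%) and 227 lower (1.48%). Without gun1 fug1 3 the count was 820 of 16201 (5.06%), 481 higher (2.97%) and 339 lower (2.09%). Of the genes called with all libraries, 247 of the 248 higher and 223 of the 227 lower were also called in that direction without gun1 fug1 3. The same mutation in plants with wild-type GUN1, fug1 against wild type, gave 2739 called genes (17.8%), 1528 higher (9.94%) and 1211 lower (7.88%). In the 11-library fit it gave 3714 (22.9%), 2131 higher (13.2%) and 1583 lower (9.77%). The 2 comparisons share no library. Of the 248 genes higher in gun1 fug1, 82 (33.1%) were also higher in fug1, which is 5.37% of the 1528, and 80 of the 227 lower genes (35.2%) were also lower in fug1, which is 6.61% of the 1211. A further 10 of the higher and 4 of the lower genes were called in the opposite direction in fug1. The count in gun1 fug1 against gun1 depended on single libraries: it was 96 without gun1 fug1 1, 233 without gun1 fug1 2, 191 without gun1 1 and 140 without gun1 2. It was 32 when only the 6 libraries of the 2 genotypes were fitted and 5 when libraries were scaled by their totals alone, a scaling under which every chaperone, import and cytosolic heat shock gene called with all libraries was lost.

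Several plastid chaperone genes rose in gun1 fug1, and none fell. Of the 10 listed, 9 passed the filter on low counts with all libraries and 4 of these rose, where 1.61% of all genes did, with a median difference of 0.47 over the 9 (all genes -0.02). Without gun1 fug1 3 the same 9 had 4 rises, where 2.97% of all genes rose, and a median of 0.60 (all genes -0.00025). The 4 were Cpn60beta2 and CPN60B, both beta subunits of the plastid chaperonin, the plastid Hsp90 CR88, and the stromal Hsp70 cpHsc70-1. The tenth, HSP21, the plastid small heat shock protein, passed the filter in the 11-library fit through its reads in gun1 fug1 alone, which favours a difference, and it is described here without being counted. HSP21 (AT4G27670) had 9.56, 7.71 and 2.40 CPM in gun1 fug1, against 0.482, 0.257 and 0.153 CPM in gun1, and the gun1 fug1 libraries held 126, 83 and 2 reads against 7, 3 and 2 in gun1. Each gun1 fug1 library lay above all gun1 libraries, and in fug1 no library had an HSP21 read. HSP21 was not tested with all libraries, and without gun1 fug1 3 its difference was 4.80 ± 0.41 (adjusted p = 1.01e-06). The HSP21 gene lies on chromosome 4 from 13818825 to 13819971 on the minus strand, and Cpn60beta2 on chromosome 3 from 4389215 to 4393015 on the plus strand.

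The chaperonin subunit Cpn60beta2 (AT3G13470) had 30.3, 25.4 and 15.6 CPM in gun1 fug1, against 11.6, 8.32 and 7.58 CPM in gun1. Its groups did not overlap, and Cpn60beta2 differed by 1.47 ± 0.23 (adjusted p = 9.02e-04) and 1.61 ± 0.21 without gun1 fug1 3 (adjusted p = 6.28e-05). The second beta subunit, CPN60B (AT1G55490), had 15.6, 12.3 and 36.0 CPM in gun1 fug1, against 7.98, 5.75 and 5.66 CPM in gun1, with gun1 fug1 3 above its replicates. CPN60B differed by 1.42 ± 0.28 (adjusted p = 0.00827) and 1.12 ± 0.21 without gun1 fug1 3 (adjusted p = 0.00379). CR88 (AT2G04030) stood at 16.2, 11.3 and 18.0 CPM in gun1 fug1, against 6.26, 5.06 and 5.36 CPM in gun1. CR88 differed by 1.37 ± 0.26 (adjusted p = 0.00609) and 1.32 ± 0.26 without gun1 fug1 3 (adjusted p = 0.00604). For cpHsc70-1 (AT4G24280) the levels were 69.3, 61.5 and 74.4 CPM in gun1 fug1, against 35.6, 30.6 and 31.4 CPM in gun1. cpHsc70-1 differed by 1.06 ± 0.20 (adjusted p = 0.00584) and 1.02 ± 0.17 without gun1 fug1 3 (adjusted p = 0.00145). All 4 genes lay higher in each gun1 fug1 library than in any gun1 library. The remaining members did not pass. The chaperonin alpha subunit CPN60A differed by 0.43 (adjusted p = 0.259), CLPB3, a plastid disaggregase, by 0.47 (0.523), the second stromal Hsp70, cpHsc70-2, by 0.17 (0.731). The GrpE homologue EMB1241 differed by 0.02 (0.980) and the co-chaperonin CPN20 by -0.05 (0.944). Leaving out gun1 fug1 1 ended the call of CR88 (adjusted p = 0.0939 with the other 11 libraries), and leaving out gun1 2 ended that of cpHsc70-1 (0.0517). Without both gun1 fug1 3 and gun1 fug1 1, a single gun1 fug1 library is left and is assumed to vary like the other groups, and adjusted p was then 0.160 for CR88, 0.114 for CPN60B and 0.0511 for cpHsc70-1. Cpn60beta2 stayed called without any 1 library. HSP21 entered the 11-library fit through its gun1 fug1 reads, so its call there is not taken as support. In a fit of the 6 gun1 fug1 and gun1 libraries alone, CPN60B and cpHsc70-1 were lost (0.0903 and 0.0996).

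The 250 bases before the annotated start of 3 of these genes are shown because heat shock factors, which drive many chaperone genes, are known to bind paired GAA units. These were searched as GAANNTTC or TTCNNGAA, which can overlap each other. Each of the 2 words is its own reverse complement, so a search of the written strand covers both. Shown are those of HSP21 and the counted plastid chaperones that rose whose window touches no other annotated gene. They were read from TAIR10.1 on the gene's strand, with the matches in capitals. The HSP21 window lies at chr4:13819972-13820221 (minus strand), that of Cpn60beta2 at chr3:4388965-4389214 (plus strand) and that of CR88 at chr2:1281504-1281753 (plus strand).
HSP21: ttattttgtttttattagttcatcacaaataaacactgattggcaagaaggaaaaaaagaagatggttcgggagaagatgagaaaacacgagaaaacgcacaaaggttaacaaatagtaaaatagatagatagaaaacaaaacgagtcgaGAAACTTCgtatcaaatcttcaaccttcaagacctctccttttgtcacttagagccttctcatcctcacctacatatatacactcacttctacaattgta
Cpn60beta2: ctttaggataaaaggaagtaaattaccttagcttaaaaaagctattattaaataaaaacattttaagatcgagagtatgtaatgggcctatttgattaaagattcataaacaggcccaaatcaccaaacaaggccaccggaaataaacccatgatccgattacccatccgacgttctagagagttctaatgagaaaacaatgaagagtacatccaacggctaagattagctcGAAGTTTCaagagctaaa
CR88: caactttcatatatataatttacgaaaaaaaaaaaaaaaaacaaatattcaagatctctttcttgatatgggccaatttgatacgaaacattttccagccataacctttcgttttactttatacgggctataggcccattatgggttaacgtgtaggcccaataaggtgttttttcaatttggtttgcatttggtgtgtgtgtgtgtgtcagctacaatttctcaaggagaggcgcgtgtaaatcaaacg
HSP21 carries GAAACTTC and Cpn60beta2 carries GAAGTTTC, while the CR88 window holds neither word. A match was held by 4 of the 10 plastid chaperones (HSP21, Cpn60beta2, CPN20 and CLPB3), 3 of 13 import genes and 5 of 12 cytosolic heat shock genes, against 16.1% of windows among all 27443 nuclear protein-coding genes. CPN20 and CLPB3 hold a match and did not pass the test. CPN60B, cpHsc70-1, AT5G01590, TIC110, TOC33, HSP90.1, HSP70 and AT5G48570 rose and hold none, while emb1211 and TOC159 hold a match. A run of 3 such units was held by 0 of 10 plastid chaperones, 0 of 13 import genes and 4 of 12 cytosolic heat shock genes. Among all windows 0.386% held such a run. Whether a match bears on the rises was not tested.

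**Figure D1:**
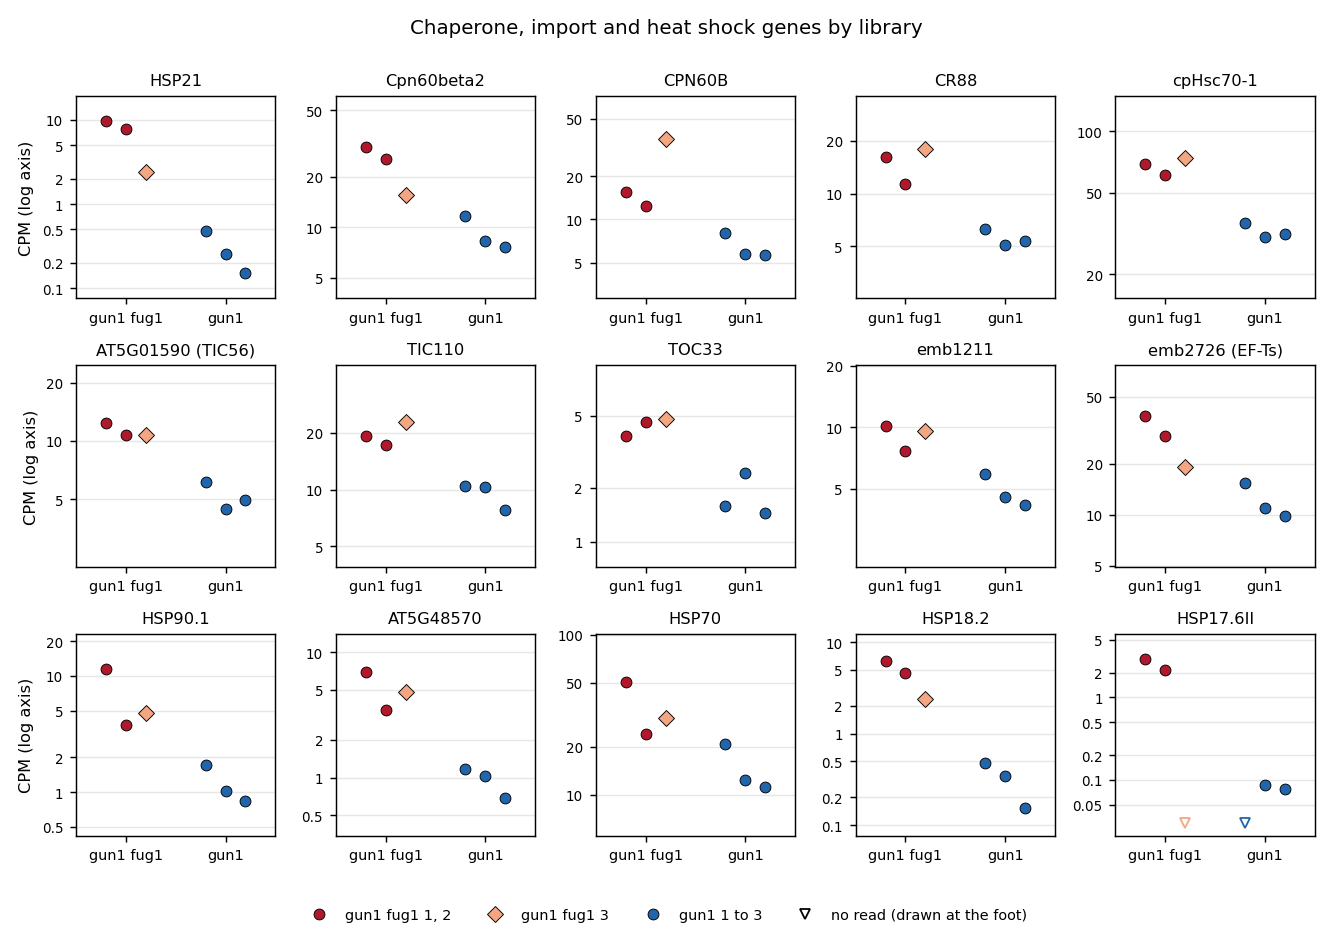
Level of 15 chaperone, import, translation and heat shock genes in each library, as CPM on a log axis; each point is a library, gun1 fug1 on the left with replicate 3 as a diamond, gun1 on the right, and an open triangle at the foot marks a library with no read. HSP21 lies at 2.40 to 9.56 CPM in gun1 fug1 and at 0.153 to 0.482 CPM in gun1, and CR88 at 11.3 to 18.0 CPM against 5.06 to 6.26 CPM.

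Some genes of the plastid import machinery rose as well, and none fell. Of 13 listed, 12 were tested, of which 4 rose with all libraries (median 0.55, all genes -0.02) and 5 without gun1 fug1 3 (median 0.59, all genes -0.00025), where 1.61% and 2.97% of all genes rose. AT5G01590, which encodes TIC56 of the inner envelope complex, had 12.36, 10.7 and 10.8 CPM in gun1 fug1, against 6.12, 4.46 and 4.98 CPM in gun1, and its groups did not overlap. AT5G01590 differed by 1.13 ± 0.22 (adjusted p = 0.00584) and 1.16 ± 0.21 without gun1 fug1 3 (adjusted p = 0.00224). TIC110, a scaffold of the inner envelope on its stromal side, had 19.1, 17.2 and 22.8 CPM in gun1 fug1, against 10.4, 10.3 and 7.81 CPM in gun1. TIC110 differed by 0.99 ± 0.20 (adjusted p = 0.00783) and 0.94 ± 0.18 without gun1 fug1 3 (adjusted p = 0.00374). The receptor TOC33 was at 3.87, 4.64 and 4.80 CPM in gun1 fug1, against 1.58, 2.40 and 1.45 CPM in gun1. TOC33 differed by 1.25 ± 0.30 (adjusted p = 0.0239) and 1.24 ± 0.29 without gun1 fug1 3 (adjusted p = 0.0155). The TIC100 gene emb1211 had 10.09, 7.61 and 9.60 CPM in gun1 fug1, against 5.92, 4.55 and 4.13 CPM in gun1. emb1211 differed by 0.87 ± 0.23 (adjusted p = 0.0368) and 0.87 ± 0.22 without gun1 fug1 3 (adjusted p = 0.0241). TOC159, the receptor for photosynthetic precursors, had 42.4, 43.3 and 26.4 CPM in gun1 fug1, against 29.7, 21.1 and 21.7 CPM in gun1, and its difference passed without gun1 fug1 3 (0.83 ± 0.19, adjusted p = 0.0119) and not with it (0.68 ± 0.22, 0.0840). In a fit of the 6 gun1 fug1 and gun1 libraries alone none of the 4 was called (adjusted p 0.0774 for AT5G01590, 0.0956 for TIC110, 0.110 for TOC33 and 0.152 for emb1211), and emb1211 was not called by DESeq2 either (0.0548). The channel gene TOC75-III differed by 0.22 (adjusted p = 0.576) and 0.30 without gun1 fug1 3 (0.314). In the first 4 genes each gun1 fug1 library lay above each gun1 library, and in TOC159 the groups overlapped. The calls rest on gun1 fug1 1, without which adjusted p was 0.0858 for AT5G01590, 0.0681 for TIC110, 0.0984 for TOC33 and 0.285 for emb1211. TOC33 was also lost without gun1 fug1 2, gun1 1 or gun1 3 (0.125, 0.0958 and 0.0591). The call of emb1211 was lost without any 1 of 8 other libraries (up to 0.144, without gun1 2), and that of TOC159, in the 11-library fit, without gun1 fug1 1, gun1 fug1 2 or gun1 2 (0.110, 0.0866 and 0.0748).

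Of all genes, 1.61% rose and 1.48% fell with all libraries, and 2.97% and 2.09% without gun1 fug1 3. Among plastid translation factors, 1 of 11 rose and none fell (median 0.46 with all libraries, 0.47 without gun1 fug1 3). This was emb2726 (AT4G29060), the plastid elongation factor Ts, with 38.4, 29.3 and 19.2 CPM in gun1 fug1, against 15.3, 10.99 and 9.87 CPM in gun1. Every gun1 fug1 library lay above every gun1 library, and emb2726 differed by 1.35 ± 0.25 (adjusted p = 0.00426) and 1.496 ± 0.22 without gun1 fug1 3 (adjusted p = 4.30e-04). Its adjusted p was 0.0687 when gun1 fug1 1 was left out and 0.0605 in the fit of gun1 fug1 and gun1 alone. SCO1, the plastid elongation factor G, differed by 0.83 (adjusted p = 0.0807) and 0.73 without gun1 fug1 3 (0.141). The bacterial-type initiation factor 3 homologue AT2G24060 differed by 0.59 (adjusted p = 0.334) and 0.47 without gun1 fug1 3 (0.396), and its relative AT4G30690 by 0.21 (adjusted p = 0.714) and 0.30 without gun1 fug1 3 (0.533). Of 38 nuclear-encoded ribosomal protein genes of the plastid, none was called with all libraries (median -0.31), and 6 had a positive difference and 32 a negative one. Without gun1 fug1 3, EMB3126, the large subunit protein L1, rose (0.65 ± 0.17, adjusted p = 0.0319) and 2 fell, AT5G65220 (-0.87 ± 0.24, 0.0382) and the small subunit protein RPS1 (-0.72 ± 0.20, 0.0403). All 3 were lost without gun1 fug1 1 (0.309, 0.361 and 0.334), without gun1 fug1 2 (0.0967, 0.0914 and 0.138) and without gun1 2 (0.0799, 0.114 and 0.137). AT5G65220 and RPS1 were also lost without gun1 1 (0.0970 and 0.0904) or fug1 3 (0.0545 and 0.0547), EMB3126 without gun1 3 (0.0549), and EMB3126 and RPS1 without wild type 2 (0.0515 and 0.0512).

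Plastid proteases gave a call in each direction among 23 tested of 24. Of all genes, 1.61% rose and 1.48% fell with all libraries, and 2.97% and 2.09% without gun1 fug1 3. HSP93-III, an Hsp100 partner of the Clp protease and of import, had 17.599, 15.6 and 14.4 CPM in gun1 fug1, against 11.1, 7.12 and 8.57 CPM in gun1. HSP93-III differed by 0.86 ± 0.22 (adjusted p = 0.0326) and 0.90 ± 0.21 without gun1 fug1 3 (adjusted p = 0.0156). CLPP4, a subunit of the Clp core, had 9.71, 9.75 and 5.998 CPM in gun1 fug1, against 22.1, 20.1 and 15.2 CPM in gun1, and here the gun1 fug1 libraries were all lower. CLPP4 differed by -1.05 ± 0.21 (adjusted p = 0.00883) and -0.97 ± 0.19 without gun1 fug1 3 (adjusted p = 0.00521). CLPC1, the close relative of HSP93-III, stood at 168, 113 and 134 CPM in gun1 fug1, against 102, 80.3 and 83.8 CPM in gun1 and differed by 0.64 (adjusted p = 0.153) and 0.67 without gun1 fug1 3 (0.0967). Without gun1 fug1 1, adjusted p was 0.205 for HSP93-III and 0.0647 for CLPP4, the 11-library call of CLPP4 was lost without gun1 fug1 1 or 2 as well (0.0947 and 0.0625), and both were lost in the fit of gun1 fug1 and gun1 alone (0.142 and 0.0848). HSP93-III was also lost without gun1 fug1 2, gun1 2, gun1 3 or wild type 2 (0.0838, 0.170, 0.0610 and 0.0585).

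RNA-binding proteins of the plastid, a list of 5 drawn up after these data were seen, gave 2 rises with all libraries and 3 without gun1 fug1 3. Of all genes, 1.61% and 2.97% rose in those fits. CP29, a chloroplast ribonucleoprotein of the type that protects plastid messages, had 50.3, 48.4 and 22.8 CPM in gun1 fug1, against 13.0, 17.3 and 16.9 CPM in gun1. All gun1 fug1 libraries lay above gun1, and CP29 differed by 1.45 ± 0.24 (adjusted p = 0.00152) and 1.66 ± 0.19 without gun1 fug1 3 (adjusted p = 1.29e-05). CP33 had 11.2, 8.82 and 8.40 CPM in gun1 fug1, against 4.196, 6.44 and 5.74 CPM in gun1. CP33 differed by 0.86 ± 0.22 (adjusted p = 0.0330) and 0.90 ± 0.21 without gun1 fug1 3 (adjusted p = 0.0146). AT2G37220, of the same family, rose without gun1 fug1 3 alone (0.76 ± 0.18, adjusted p = 0.0151; 0.0793 with all libraries). CP33 was lost without gun1 fug1 1 (0.283), gun1 fug1 2 (0.0651), gun1 1 (0.162), gun1 2 (0.0623), wild type 1 (0.0604) or wild type 2 (0.0663), and AT2G37220 without gun1 fug1 1 or 2 (0.138 and 0.107). EMB1865, a CRM domain protein of the family that takes part in intron splicing in organelles, had 7.05, 4.92 and 3.60 CPM in gun1 fug1, against 1.86, 1.72 and 1.45 CPM in gun1. EMB1865 differed by 1.78 ± 0.31 (adjusted p = 0.00256) and 1.85 ± 0.29 without gun1 fug1 3 (adjusted p = 7.60e-04). Without gun1 fug1 1 its adjusted p was 0.0750. The plastid transcription machinery, 20 of 21 genes tested, had no call in either direction (median 0.57, and 0.55 without gun1 fug1 3). Its member SIG2, a sigma factor of the plastid polymerase, differed by 0.80 (adjusted p = 0.0933) and 0.75 without gun1 fug1 3 (0.0923), and PTAC3, of the transcriptionally active chromosome, by 0.71 (adjusted p = 0.148) and 0.77 without gun1 fug1 3 (0.0918).

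Some heat shock genes for cytosolic proteins rose as well. Of all genes, 1.61% rose with all libraries and 2.97% without gun1 fug1 3. Of 12 listed, 4 passed the filter in both fits, without need of the gun1 fug1 libraries, and HSP90.1, AT5G48570 and HSP70 rose in both. A further 3, HSP18.2, HSP17.6II and HSP17.4, passed without gun1 fug1 3 through their reads in gun1 fug1 alone, which favours a difference, so they are not counted, and 5 were not tested. HSP17.4 was tested there and not called. HSP90.1, the heat-inducible cytosolic Hsp90, had 11.5, 3.81 and 4.80 CPM in gun1 fug1, against 1.72, 1.03 and 0.842 CPM in gun1. HSP90.1 differed by 2.60 ± 0.41 (adjusted p = 0.00160) and 2.68 ± 0.43 without gun1 fug1 3 (adjusted p = 0.00189). AT5G48570, the immunophilin ROF2, had 6.98, 3.44 and 4.80 CPM in gun1 fug1, against 1.17, 1.03 and 0.689 CPM in gun1. AT5G48570 differed by 2.42 ± 0.40 (adjusted p = 0.00162) and 2.44 ± 0.40 without gun1 fug1 3 (adjusted p = 0.00109). HSP70 (AT3G12580), an inducible cytosolic Hsp70, had 50.7, 23.9 and 30.0 CPM in gun1 fug1, against 20.6, 12.44 and 11.1 CPM in gun1. HSP70 differed by 1.27 ± 0.29 (adjusted p = 0.0220) and 1.35 ± 0.34 without gun1 fug1 3 (adjusted p = 0.0410). In each of the 3 genes gun1 fug1 1 was the highest library of all 6. Among small heat shock proteins, HSP18.2 had 6.14, 4.64 and 2.40 CPM in gun1 fug1, against 0.482, 0.343 and 0.153 CPM in gun1, from 81, 50 and 2 reads against 7, 4 and 2, and rose without gun1 fug1 3 (4.01 ± 0.51, adjusted p = 5.70e-05). HSP17.6II had 39 and 23 reads in gun1 fug1 1 and 2 and none in gun1 fug1 3, against 0, 1 and 1 in gun1 (adjusted p = 2.42e-04 without gun1 fug1 3). HSP101, the cytosolic disaggregase, differed by 1.34 (adjusted p = 0.0878) and 1.201 without gun1 fug1 3 (0.0996). Without gun1 fug1 1, the adjusted p was 0.0955 for HSP90.1, 0.0888 for AT5G48570 and 0.229 for HSP70, and HSP70 was also lost without gun1 2 (0.111) or gun1 3 (0.0548). HSP18.2 and HSP17.6II entered the 11-library fit through their gun1 fug1 reads, so their calls there are not taken as support.

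The fug1-3 difference itself was compared between the backgrounds, as (gun1 fug1 minus gun1) minus (fug1 minus wild type). With all libraries 206 genes were called (1.34%), 123 with a positive (0.800%) and 83 with a negative value (0.540%), and without gun1 fug1 3 there were 432 (2.67%), 255 positive (1.57%) and 177 negative (1.09%). Plastid chaperones stood among the positive ones: 4 of 9 were called with all libraries (median 1.31, all genes -0.08) and 5 of the same 9 without gun1 fug1 3 (median 1.27, all genes -0.06). In fug1 against wild type none of the chaperones rose and 5 fell, namely CPN60B, CR88, cpHsc70-2, CLPB3 and EMB1241. Of all genes, 7.88% fell there with all libraries and 9.77% without gun1 fug1 3. The values that follow are from the 11-library fit. CR88 differed by 1.32 ± 0.26 in the gun1 background and by -1.12 ± 0.25 in fug1 against wild type, a difference of 2.44 ± 0.36 between them (adjusted p = 0.00214). CPN60B differed by 1.12 ± 0.21 and -0.97 ± 0.20 in the same order, with 2.09 ± 0.29 between them (0.00152). For Cpn60beta2 the values were 1.61 ± 0.21 and -0.11 ± 0.20, with 1.72 ± 0.29 between them (0.00346), and for cpHsc70-1 1.02 ± 0.17 and -0.25 ± 0.16, with 1.27 ± 0.24 (0.00743). The elongation factor emb2726 gave 1.496 ± 0.22 and -0.48 ± 0.21, with 1.97 ± 0.31 (0.00267).

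With all libraries the difference between the backgrounds was 2.48 ± 0.36 for CR88 (adjusted p = 0.00208), 2.38 ± 0.39 for CPN60B (0.00562), 1.58 ± 0.32 for Cpn60beta2 (0.0175), 1.31 ± 0.28 for cpHsc70-1 (0.0217) and 1.82 ± 0.34 for emb2726 (0.0107). The last 3 calls were lost in that fit when gun1 fug1 1 was left out (0.110, 0.103 and 0.0794), and without several other single libraries too. The fifth chaperone called without gun1 fug1 3 was cpHsc70-2, at 0.97 (0.0485; 0.164 with all libraries), which was lost without any 1 of 9 further libraries.

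Several import and translation genes differed between the backgrounds in the same direction as the chaperones. With all libraries 3 of 12 import genes (median 0.95) and 4 of 11 translation factors (median 1.31) were called. Of all genes, 0.800% had a positive call there, and 1.57% without gun1 fug1 3. In the 11-library fit 4 of 12 import genes were called (median 1.05), namely AT5G01590 (1.48, adjusted p = 0.00804), TIC110 (1.19, 0.0123), emb1211 (1.48, 0.0123) and TOC159 (1.04, 0.0308). Of the translation factors 4 of 11 were called (median 1.33): emb2726, SVR3 (1.77, 0.00436), a TypA-like GTPase, SCO1 (1.52, 0.0400) and RRF (1.51, 0.0294), the ribosome recycling factor. SVR3 fell in fug1 against wild type (-1.23 ± 0.21, adjusted p = 4.10e-04), and differed by 0.55 ± 0.22 in the gun1 background (adjusted p = 0.165). HEMA1, which encodes a glutamyl-tRNA reductase of tetrapyrrole synthesis, differed by 0.79 ± 0.25 (adjusted p = 0.0713) in the gun1 background and fell in fug1 against wild type (-1.05 ± 0.23, 0.00365), with 1.84 ± 0.34 between them (0.00834). With all libraries the adjusted p of the difference was 0.0175 for AT5G01590, 0.0230 for TIC110, 0.0203 for emb1211, 0.136 for TOC159, 0.0128 for SVR3, 0.0308 for SCO1, 0.0486 for RRF and 0.0217 for HEMA1, and each of these except TOC159, which was not called, was lost there without gun1 fug1 1. In the 11-library fit, leaving out gun1 fug1 1 as well gave an adjusted p of the difference of 0.0763 for cpHsc70-1, 0.0830 for AT5G01590, 0.123 for TIC110, 0.159 for emb1211, 0.171 for TOC159, 0.0662 for SVR3, 0.232 for SCO1, 0.141 for RRF and 0.0836 for HEMA1, and TOC159, SCO1 and RRF were lost without most other single libraries too, with adjusted p of up to 0.105 (SCO1, without gun1 2). CR88, CPN60B, Cpn60beta2 and emb2726 were called in every 11-library fit that left out 1 more library.

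**Figure D2:**
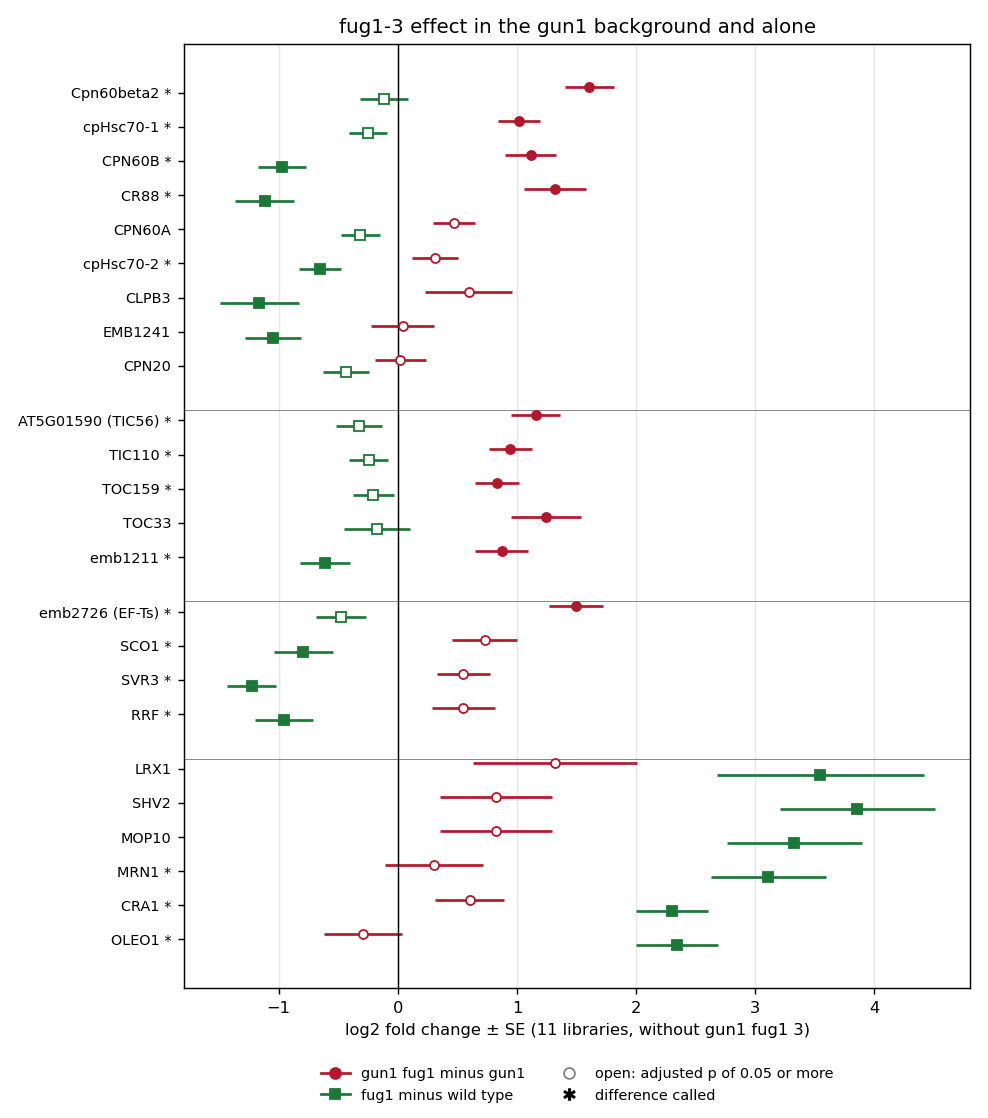
Log2 fold change ± SE of the fug1-3 mutation in the gun1 background (red circles) and in plants with wild-type GUN1 (green squares), from the 11 libraries without gun1 fug1 3; open symbols did not pass an adjusted p of 0.05, and an asterisk marks genes whose 2 values differ at that threshold. From the top, the blocks hold plastid chaperones, import, translation factors, and root and seed genes. CR88 lies at 1.32 in the gun1 background and at -1.12 without gun1.

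Other genes stood out by the size of that difference, chosen as the 3 named genes in each direction with the smallest p in either fit, of which CR88, CPN60B and CKX5 are described elsewhere. PCAP1, a plasma membrane protein that binds calcium, had 20.03, 17.7 and 20.4 CPM in gun1 fug1, against 11.2, 8.93 and 11.7 CPM in gun1, and fell to 10.7 ± 2.31 CPM in fug1 against 29.7 ± 5.26 CPM in wild type (SD, n = 3), a difference between backgrounds of 2.32 ± 0.30 with all libraries (adjusted p = 8.78e-04) and 2.31 ± 0.28 without gun1 fug1 3 (3.56e-04). In the gun1 background PCAP1 rose by 0.85 ± 0.22 (adjusted p = 0.0330) and 0.84 ± 0.20 without gun1 fug1 3 (adjusted p = 0.0194), which was lost without gun1 fug1 1, gun1 fug1 2 or gun1 2 in both fits. With all libraries the PCAP1 call was also lost without gun1 1, fug1 3, wild type 1 or wild type 2 (adjusted p up to 0.181 when 1 library was left out). SKIP5, an F-box protein gene, had 2.58, 1.3 and 2.40 CPM in gun1 fug1, against 0.138, 0.0858 and 0.0765 CPM in gun1, where gun1 held 2, 1 and 1 reads, and stood at 3.57 ± 1.21 CPM in fug1 and 4.08 ± 0.312 CPM in wild type, so that the gun1 libraries were the lowest of the 4 genotypes. MRD1 had 5.16, 5.76 and 4.80 CPM in gun1 fug1, against 4.26, 5.92 and 6.28 CPM in gun1, which overlap, and differed by -0.02 (adjusted p = 0.984) and 0.00 without gun1 fug1 3 (0.997). MRD1 rose in fug1 against wild type (2.96 ± 0.32, 9.76e-06). LTP4, a lipid transfer protein, had 1.74, 0.650 and 0 CPM in gun1 fug1, against 3.16, 3.43 and 5.82 CPM in gun1. LTP4 differed by -1.82 ± 0.41 (adjusted p = 0.0168) and -1.73 ± 0.40 without gun1 fug1 3 (adjusted p = 0.0134), and it rose in fug1 against wild type (1.87 ± 0.41, 0.00408). Its call in the gun1 background was lost without gun1 fug1 2 in both fits (0.134 and 0.186), and in the fit of gun1 fug1 and gun1 alone (0.0919). NCED3, the rate-limiting dioxygenase of abscisic acid synthesis, had 7.96, 6.50 and 5.998 CPM in gun1 fug1, against 13.96, 11.9 and 11.9 CPM in gun1. It was lower in each gun1 fug1 library without passing, at -0.82 (adjusted p = 0.0677) and -0.79 without gun1 fug1 3 (0.0712). NCED3 rose in fug1 against wild type (1.13 ± 0.23, 0.00210).

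The rises described next are the largest among nuclear genes with a name in the annotation that were called in both fits, had groups without overlap and averaged at least 5 CPM in the genotype where they were higher. The 8 were BCB, HSP90.1, EXT4, CWLP, CSD2, EMB1865, AGP31 and GolS1, of which HSP90.1 and EMB1865 are given above. BCB, a blue copper-binding protein, had 3.41, 7.15 and 7.20 CPM in gun1 fug1, against 0.413, 0.257 and 0.383 CPM in gun1. BCB differed by 3.90 ± 0.46 (adjusted p = 6.38e-05) and 3.85 ± 0.46 without gun1 fug1 3 (adjusted p = 2.47e-05), and passed the filter with all libraries through its reads in gun1 fug1 alone. Its call with all libraries is therefore not taken as support. In the 11-library fit it passed without need of the gun1 fug1 libraries. EXT4, an extensin of the cell wall, had 7.43, 5.20 and 2.40 CPM in gun1 fug1, against 1.03, 1.29 and 0.612 CPM in gun1. EXT4 differed by 2.59 ± 0.35 (adjusted p = 1.76e-04) and 2.71 ± 0.33 without gun1 fug1 3 (adjusted p = 2.58e-05). CWLP, a proline-rich protein that links wall and plasma membrane, had 14.8, 20.1 and 4.80 CPM in gun1 fug1, against 4.196, 3.18 and 1.53 CPM in gun1. CWLP differed by 2.38 ± 0.33 (adjusted p = 4.90e-04) and 2.55 ± 0.28 without gun1 fug1 3 (adjusted p = 1.42e-05). The plastid copper/zinc superoxide dismutase CSD2 had 10.5, 14.02 and 7.20 CPM in gun1 fug1, against 2.48, 1.97 and 3.37 CPM in gun1. CSD2 differed by 2.14 ± 0.27 (adjusted p = 1.21e-04) and 2.23 ± 0.25 without gun1 fug1 3 (adjusted p = 1.29e-05). AGP31, an arabinogalactan protein, had 4.93, 8.54 and 4.80 CPM in gun1 fug1, against 1.51, 1.46 and 2.99 CPM in gun1. AGP31 differed by 1.70 ± 0.36 (adjusted p = 0.0129) and 1.75 ± 0.37 without gun1 fug1 3 (adjusted p = 0.0104). GolS1, a galactinol synthase induced by heat, had 25.9, 15.6 and 18.0 CPM in gun1 fug1, against 6.95, 5.84 and 6.97 CPM in gun1. GolS1 differed by 1.63 ± 0.23 (adjusted p = 3.30e-04) and 1.67 ± 0.23 without gun1 fug1 3 (adjusted p = 1.17e-04). Of these, EXT4, CWLP, CSD2 and AGP31 also rose in fug1 against wild type (2.72, 1.39, 0.92 and 1.83), and BCB and GolS1 differed there by 0.04 (adjusted p = 0.963) and 0.17 (0.660). AGP31 was lost without gun1 fug1 2 (adjusted p = 0.130), gun1 1 (0.0631) or gun1 2 (0.0758) and in the fit of gun1 fug1 and gun1 alone (0.0596), and CWLP and GolS1 overlap another gene.

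The falls chosen by the same rule were those of CKX5, ESM1, GASA6, XTH9, SAUR22, MIPS1, PAR1 and ATPD, the last of which is described with the photosynthesis genes. CKX5, which degrades cytokinin, had 1.44, 1.86 and 0 CPM in gun1 fug1, against 10.04, 9.35 and 9.11 CPM in gun1. CKX5 differed by -2.61 ± 0.34 (adjusted p = 1.76e-04) and -2.52 ± 0.32 without gun1 fug1 3 (adjusted p = 5.92e-05). ESM1, which steers glucosinolate breakdown, had 0.910, 1.95 and 4.80 CPM in gun1 fug1, against 11.01, 8.32 and 7.58 CPM in gun1. ESM1 differed by -2.51 ± 0.34 (adjusted p = 1.76e-04) and -2.67 ± 0.32 without gun1 fug1 3 (adjusted p = 2.04e-05). GASA6, a gibberellin-regulated peptide, had 20.3, 18.8 and 9.60 CPM in gun1 fug1, against 99.8, 97.1 and 61.6 CPM in gun1. GASA6 differed by -2.30 ± 0.26 (adjusted p = 6.38e-05) and -2.13 ± 0.22 without gun1 fug1 3 (adjusted p = 6.53e-06). XTH9, a xyloglucan-modifying enzyme, had 3.26, 2.51 and 1.1997 CPM in gun1 fug1, against 11.4, 9.87 and 9.41 CPM in gun1. XTH9 differed by -1.87 ± 0.25 (adjusted p = 1.76e-04) and -1.80 ± 0.24 without gun1 fug1 3 (adjusted p = 8.55e-05). SAUR22, a small auxin-up RNA, had 2.28, 2.14 and 0 CPM in gun1 fug1, against 7.29, 7.55 and 4.67 CPM in gun1. SAUR22 differed by -1.64 ± 0.30 (adjusted p = 0.00459) and -1.54 ± 0.27 without gun1 fug1 3 (adjusted p = 0.00147). That each gun1 fug1 library of these genes lay below each gun1 library was required by the rule. For CKX5 and SAUR22 gun1 fug1 3 held no read, where a single read weighs 1.1997 CPM. MIPS1, which makes inositol phosphate for galactinol and other products, had 24.5, 23.59 and 15.6 CPM in gun1 fug1, against 73.4, 68.9 and 56.3 CPM in gun1. MIPS1 differed by -1.58 ± 0.23 (adjusted p = 3.30e-04) and -1.45 ± 0.19 without gun1 fug1 3 (adjusted p = 8.55e-05). PAR1, a negative regulator of shade growth, had 10.5, 12.5 and 7.20 CPM in gun1 fug1, against 24.6, 38.4 and 32.6 CPM in gun1. PAR1 differed by -1.55 ± 0.27 (adjusted p = 0.00317) and -1.46 ± 0.27 without gun1 fug1 3 (adjusted p = 0.00455). Of these, GASA6, XTH9 and ESM1 also fell in fug1 against wild type (-1.58, -1.65 and -1.07), while CKX5 differed there by -0.19 (adjusted p = 0.631) and PAR1 by -0.05 (0.915). PAR1 was lost from the 11-library fit without gun1 fug1 1 (0.110), SAUR22 was lost in the fit of gun1 fug1 and gun1 alone (0.0593), and CKX5 and GASA6 overlap other genes.

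**Figure D3:**
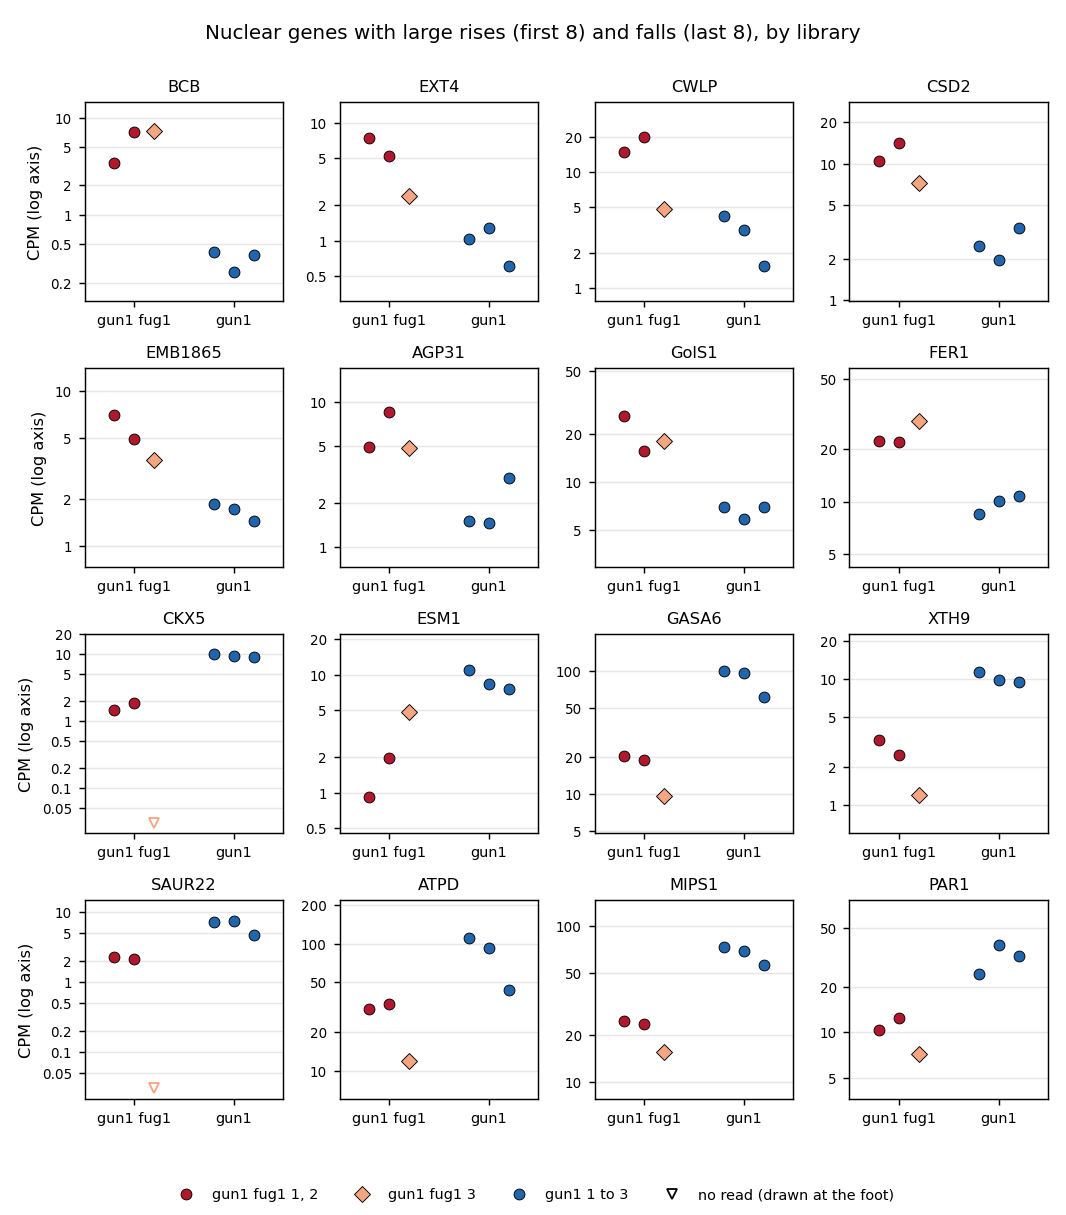
Level of 16 nuclear genes in each library, as CPM on a log axis; points are libraries, gun1 fug1 on the left with replicate 3 as a diamond, gun1 on the right, and an open triangle marks no read. The first 8 panels are genes that rose and the last 8 genes that fell. GASA6 lies at 9.60 to 20.3 CPM in gun1 fug1 and 61.6 to 99.8 CPM in gun1, and CKX5 at 0 to 1.86 CPM against 9.11 to 10.04 CPM.

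Genes of metal balance moved in both directions; the iron and copper lists were drawn up after these data were seen. Of all genes, 1.61% rose and 1.48% fell with all libraries, and 2.97% and 2.09% without gun1 fug1 3. Of 14 iron genes, 10 were tested with all libraries, of which 2 rose and 4 fell (median -1.09), and 11 without gun1 fug1 3, of which 2 rose and 4 fell (median -1.35). The ferritin genes for iron storage were the ones that rose. FER1 had 22.2, 21.7 and 28.8 CPM in gun1 fug1, against 8.46, 10.04 and 10.8 CPM in gun1. FER1 differed by 1.25 ± 0.22 (adjusted p = 0.00339) and 1.18 ± 0.20 without gun1 fug1 3 (adjusted p = 0.00141), while it fell in fug1 against wild type (-0.66 ± 0.21, adjusted p = 0.0312). FER4 had 2.50, 3.53 and 3.60 CPM in gun1 fug1, against 1.24, 1.12 and 1.07 CPM in gun1. FER4 differed by 1.404 ± 0.32 (adjusted p = 0.0182) and 1.39 ± 0.31 without gun1 fug1 3 (adjusted p = 0.0114). Those that fell belong to iron uptake and its control. BTS, an iron-sensing ubiquitin ligase that restrains uptake, had 10.09, 9.10 and 9.60 CPM in gun1 fug1, against 31.6, 18.19 and 16.9 CPM in gun1. BTS differed by -1.21 ± 0.25 (adjusted p = 0.0103) and -1.20 ± 0.25 without gun1 fug1 3 (adjusted p = 0.00901). NAS4, a nicotianamine synthase, had 0.303, 0.371 and 0 CPM in gun1 fug1, against 2.48, 1.37 and 1.53 CPM in gun1. NAS4 differed by -2.46 ± 0.52 (adjusted p = 0.0117) and -2.40 ± 0.52 without gun1 fug1 3 (adjusted p = 0.00888). AT1G47400, the small peptide gene IMA1 that promotes uptake, had no read in any gun1 fug1 library, against 35, 14 and 9 reads in gun1 (adjusted p = 0.00402, and 0.00207 without gun1 fug1 3). Its relative AT2G30766 also had none, against 11, 4 and 4 reads (adjusted p = 0.0380, and 0.0299 without gun1 fug1 3), and no fold is given for either. Except for FER1, these calls depended on single libraries: without gun1 fug1 1 the adjusted p was 0.0524 for FER4, 0.0681 for BTS, 0.117 for NAS4, 0.0576 for AT1G47400 and 0.207 for AT2G30766. Without gun1 fug1 2 it was 0.133, 0.0592, 0.0527 and 0.130 for FER4, BTS, NAS4 and AT2G30766, without gun1 1 0.0576, 0.0640, 0.0573 and 0.123, and without gun1 2 0.0740 for FER4 and 0.0717 for AT2G30766, which was lost without fug1 3 or wild type 2 too (0.0502 and 0.0528). In the copper list of 9, BCB passed the filter with all libraries through its reads in gun1 fug1 alone and is not counted there. Of the other 8, CSD2 rose and 1 fell with all libraries. Without gun1 fug1 3 all 9 passed without need of the gun1 fug1 libraries, and 3 rose, among them BCB and CSD2, and 1 fell. CCH, a copper chaperone, had 10.8, 13.9 and 4.80 CPM in gun1 fug1, against 35.6, 28.5 and 28.1 CPM in gun1. CCH differed by -1.45 ± 0.24 (adjusted p = 0.00152) and -1.31 ± 0.20 without gun1 fug1 3 (adjusted p = 3.88e-04). CCS, the chaperone that loads copper into superoxide dismutases, was the third, with 0.87 (adjusted p = 0.0633) and 0.90 without gun1 fug1 3 (0.0385), a call lost without gun1 fug1 1 or 2 (0.231 and 0.185), several other single libraries, or with DESeq2 (0.0533).

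Nuclear genes for the photosynthetic apparatus gave few calls. Of all genes, 1.61% rose and 1.48% fell with all libraries, and 2.97% and 2.09% without gun1 fug1 3. None of 17 light-harvesting genes was called in either fit (median -0.11, and -0.01 without gun1 fug1 3), and their summed level was 19250.3, 19502.4 and 16854.0 CPM in gun1 fug1, against 20249.4, 21091.2 and 14575.0 CPM in gun1, which overlap. None of 14 carbon fixation genes was called either (median -0.00, and 0.15 without gun1 fug1 3). Of 29 photosystem and electron transport genes, 1 fell with all libraries (median -0.33). This was ATPD, the delta subunit of the plastid ATP synthase, with 30.4, 33.7 and 11.997 CPM in gun1 fug1, against 110.3, 91.7 and 43.3 CPM in gun1. ATPD differed by -1.59 ± 0.31 (adjusted p = 0.00827) and -1.34 ± 0.27 without gun1 fug1 3 (adjusted p = 0.00746). It fell in fug1 against wild type as well (-1.19 ± 0.30, adjusted p = 0.0105). In the 11-library fit 3 of them fell (median -0.17), and ATPD was lost there without gun1 fug1 1 or 2 (0.132 and 0.0675). In the fit of gun1 fug1 and gun1 alone ATPD was called neither with gun1 fug1 3 (0.0963) nor without it (0.0623). PSAN, a subunit of photosystem I, was another of the 3, with -0.85 (adjusted p = 0.0794) and -0.95 without gun1 fug1 3 (0.0401), and was lost without any 1 of 7 further libraries (up to 0.286, without gun1 fug1 1) and with the root level as a covariate (0.218). Among 28 tested tetrapyrrole genes, ALB1, the magnesium chelatase subunit D, had 28.2, 22.5 and 26.4 CPM in gun1 fug1, against 13.9, 11.4 and 12.02 CPM in gun1. ALB1 rose by 1.04 ± 0.20 (adjusted p = 0.00584) and 1.04 ± 0.18 without gun1 fug1 3 (adjusted p = 0.00181), with an adjusted p of 0.0815 without gun1 fug1 1. Without gun1 fug1 3 GSA1 rose too (0.63, adjusted p = 0.0386). HEMA1 differed by 0.64 (adjusted p = 0.176) and 0.79 without gun1 fug1 3 (0.0713).

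Transcripts of the plastid genome took 70.9%, 70.8% and 53.4% of counts in gun1 fug1, against 75.2%, 76.7% and 75.003% in gun1. The groups did not overlap, with a difference in means of -10.6 points (two-sided exact permutation p = 0.1, the smallest that 3 against 3 allows) and -4.78 points without gun1 fug1 3 (exact permutation p = 0.2, the smallest that 2 against 3 allows). Mitochondrion-encoded genes took 0.815%, 1.05% and 0.0306% in gun1 fug1, against 0.533%, 0.521% and 0.629% in gun1. Here gun1 fug1 3 lay under and its replicates above gun1, the difference being 0.0704 points (exact permutation p = 0.9) and 0.371 points without gun1 fug1 3 (p = 0.2, exact permutation, again the smallest possible). It was -0.0215 points without gun1 fug1 1 and -0.138 points without gun1 fug1 2.

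Within the plastid genome, ribosomal protein genes and photosynthesis genes went opposite ways once gun1 fug1 3 was left out. Of 17 ribosomal protein genes 10 rose and none fell (median 1.46), whereas of 33 photosynthesis genes 9 fell and none rose (median -0.80), where 2.97% of all genes rose and 2.09% fell in that fit. With gun1 fug1 3 included, 2 ribosomal protein genes rose (median 3.62) and 1 photosynthesis gene, psaA, fell (median 0.92), so the median of the photosynthesis genes turned its sign with that library, and the call of psaA was lost when any of 10 single libraries was left out. The gene rps19 had 27.4, 22.9 and 56.4 CPM in gun1 fug1, against 9.36, 6.61 and 5.82 CPM in gun1. It was called in both fits, with 2.12 ± 0.27 (adjusted p = 1.76e-04) and 1.80 ± 0.21 without gun1 fug1 3 (adjusted p = 1.56e-05). Its neighbour rpl22 had 57.0, 43.8 and 698 CPM in gun1 fug1, against 14.7, 13.9 and 10.3 CPM in gun1, with gun1 fug1 3 far above its replicates on this scale. A read weighs 1.1997 CPM in gun1 fug1 3, against 0.0759 and 0.0929 CPM in gun1 fug1 1 and 2. Plastid genes took a smaller share of its counts (53.4%, against 70.9% and 70.8%), so a high CPM there need not mean more reads. Plastid gene values with all libraries, here and in the next paragraph, carry that scaling. rpl22 differed by 4.31 ± 1.04 (adjusted p = 0.0668) and 1.97 ± 0.18 without gun1 fug1 3 (adjusted p = 1.32e-06). In rps3, of the same gene cluster, the levels were 58.6, 43.3 and 432 CPM in gun1 fug1, against 16.9, 13.99 and 10.5 CPM in gun1. rps3 differed by 3.62 ± 0.87 (adjusted p = 0.0648) and 1.90 ± 0.24 without gun1 fug1 3 (adjusted p = 8.55e-05). Another member of that cluster, rpl36, rose by 1.21 without gun1 fug1 3. The polymerase subunit gene rpoB, read by the nuclear-encoded plastid polymerase, had 227, 194 and 2522 CPM in gun1 fug1, against 72.4, 52.4 and 37.0 CPM in gun1. rpoB differed by 4.18 ± 1.001 (adjusted p = 0.0648) and 1.97 ± 0.24 without gun1 fug1 3 (adjusted p = 3.95e-05). It was the only one of 6 tested genes of the list read by that polymerase to rise without gun1 fug1 3, and clpP1, which encodes a core subunit of the Clp protease, fell there (-0.94 ± 0.23, adjusted p = 0.0207), while with all libraries clpP1 differed by 0.45 (0.722) and none was called. The clpP1 levels were 438, 584 and 3038 CPM in gun1 fug1, against 1270.0, 983 and 713 CPM in gun1, and its call was lost without gun1 fug1 1, gun1 fug1 2, gun1 1 or gun1 2 (up to 0.310). Of these 11-library calls, that of rpl36 was lost without gun1 fug1 1 (0.265) and without gun1 fug1 2, gun1 2 or fug1 2 (up to 0.0900), while rps19, rpl22, rps3 and rpoB were called each time.

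Among photosynthesis genes of the plastid, psbH of photosystem II had 339, 286 and 993 CPM in gun1 fug1, against 1399, 1136 and 763 CPM in gun1. psbH differed by -1.03 ± 0.39 (adjusted p = 0.150) and -1.80 ± 0.28 without gun1 fug1 3 (adjusted p = 7.33e-04). The genes psbE, psbF, psbL and psbJ, which form 1 operon for small photosystem II subunits, fell in the 11-library fit, with differences of -1.53, -1.39, -1.42 and -1.30. The others that fell there were psaI and psaC of photosystem I (-1.20 and -0.93), psbN, which helps to assemble photosystem II (-1.95), and atpI of the ATP synthase (-1.94). For psbE the levels were 868, 871 and 3912 CPM in gun1 fug1, against 3311, 2567 and 1686 CPM in gun1, so that gun1 fug1 1 and 2 lay below every gun1 library and gun1 fug1 3 above them. Of the abundant transcripts, rbcL, the large subunit of Rubisco, differed by 1.29 (adjusted p = 0.306) and -0.58 without gun1 fug1 3 (0.147), so that its sign turned with that library, and psbA, a core protein of photosystem II, by 2.68 (adjusted p = 0.0733) and 0.18 without gun1 fug1 3 (0.704). These falls rest on both remaining libraries: without gun1 fug1 1 the adjusted p was 0.0773 for psbE and up to 0.267 (psaC), without gun1 fug1 2 0.0515 for psbE and up to 0.205 (atpI), and 7 and 8 of the 9 calls were lost. psaC was lost as well without gun1 1 or gun1 2 (0.0685 and 0.0798) and atpI without gun1 2 or wild type 2 (0.0749 and 0.0534). Of all genes, 13.2% rose and 9.77% fell in fug1 against wild type in the 11-library fit. The difference between the backgrounds was negative and called for 1.09% of all genes. In fug1 against wild type 13 of the 33 photosynthesis genes rose and 3 fell in the same fit, and the difference between the backgrounds was negative and called for 16 (median -1.28). Both depended on leaving out gun1 fug1 3: with all libraries none rose and 1 fell in fug1 against wild type, and the difference between the backgrounds was called for none of the 33, with a median of 0.60. Mitochondrion-encoded genes gave 17 higher and 2 lower calls of 56 tested in the 11-library fit, and 8 and 1 of 54 with all libraries. Of all genes, 2.97% rose and 2.09% fell in the 11-library fit, and 1.61% and 1.48% with all libraries.

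**Figure D4:**
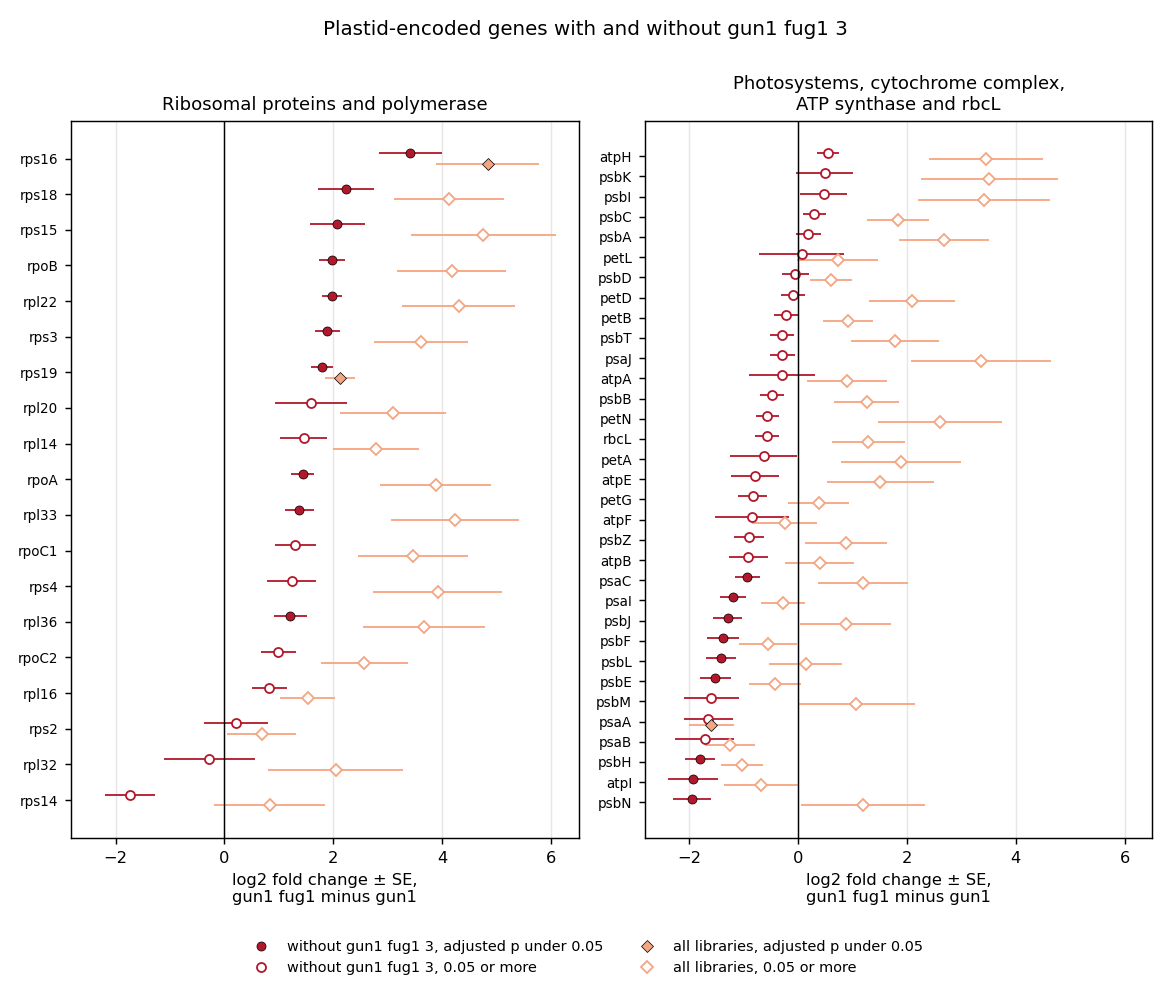
Log2 fold change ± SE of gun1 fug1 against gun1 for plastid-encoded genes, with ribosomal protein and polymerase genes on the left and photosynthesis genes on the right; red circles leave gun1 fug1 3 out, orange diamonds use all libraries, and filled symbols passed an adjusted p of 0.05. For rps19 both values are positive (1.80 and 2.12), and for psbJ they are -1.30 without and 0.87 with gun1 fug1 3.

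Markers of other organs and stages were measured beside these results. None of 10 tested root and root hair genes was called between gun1 fug1 and gun1 (median 0.74, and 0.82 without gun1 fug1 3), and their summed level was 206.5, 215.0 and 151.2 CPM in gun1 fug1, against 159.8, 159.3 and 227.6 CPM in gun1, which overlap. None of 4 tested seed storage and oil body genes was called (median 0.20, and 0.16 without gun1 fug1 3), at 69.1, 56.9 and 86.4 CPM in gun1 fug1, against 37.6, 51.0 and 77.9 CPM in gun1. At the level of single markers, LRX1 of root hairs had 3.57, 5.11 and 0 CPM in gun1 fug1, against 0.206, 1.37 and 3.67 CPM in gun1 and the seed storage gene CRA1 37.1, 30.4 and 49.2 CPM in gun1 fug1, against 14.8, 18.3 and 34.1 CPM in gun1. Cell division genes gave no call of 3 tested (median -0.72), nor of 5 without gun1 fug1 3 (median -0.96). In fug1 against wild type, 8 of the 10 root genes and all 4 seed genes rose, where 9.94% of all genes did. With the mean root level as a covariate, a setting chosen after the data were seen, 708 genes were called with all libraries and 1090 without gun1 fug1 3.

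Further calls with all libraries that were lost in the fit of gun1 fug1 and gun1 alone were those of ALB1, psaA, HSP70, FER4, NAS4, BTS, CP29, CP33, PCAP1, GI and ICL. In the 11-library fit, leaving out gun1 fug1 1 as well ended the calls of RPS1, EMB3126, AT5G65220, CLPP4, HSP93-III, cpHsc70-1, CR88, CPN60B, TOC159, TOC33, TIC110, AT5G01590, emb1211, PSAN, ATPD, GSA1, ALB1, atpI, psbJ, psbL, psbF, psbE, psbN, psaC, rpl36, clpP1, HSP70, HSP90.1, AT5G48570, CCS, AT1G47400, AT2G30766, NAS4, BTS, AT2G37220, CP33, PAR1, EMB1865 and PCAP1, and leaving out gun1 fug1 2 as well ended those of RPS1, EMB3126, AT5G65220, CLPP4, HSP93-III, TOC159, TOC33, PSAN, ATPD, GSA1, atpI, psaI, psbJ, psbL, psbF, psbE, psbN, psaC, rpl36, clpP1, CCS, FER4, AT2G30766, NAS4, BTS, AT2G37220, AGP31, PCAP1 and LTP4.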

How the data were processed

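RNA-seq read counts per locus were deposited by the authors as 1 table per library. Per the submitters' processing notes the reads were trimmed with Trimmomatic, checked with FastQC, aligned with TopHat2 2.1.1 to TAIR10 and counted with featureCounts; strand settings are not given in the sources used here. Each table holds 36917 loci, of which 36632 are in the TAIR10.1 annotation used for names, positions and promoter sequence, and no column of per-sample values was left out (0).

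Libraries were grouped by their titles. The counts were filtered with filterByExpr by genotype, scaled by TMM and fitted with edgeR 4.0.16 (robust quasi-likelihood F test, R 4.3.3), with 1 coefficient for each genotype, once with all 12 libraries and once with 11, without gun1 fug1 3. P-values were adjusted over all genes tested after Benjamini and Hochberg, and the fit was tested on simulated data. The simulated gun1 fug1 libraries shared the same means, so that test cannot speak for a library that stands apart as gun1 fug1 3 does. CPM are counts over the effective library sizes of the 12-library fit. Shares of counts were compared by exact permutation tests. DESeq2 1.42.0, limma 3.58.1, other scalings, filters, designs and left-out libraries were tried.

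Members and lists were chosen with earlier results of these data known, and 8 of 35 lists (plastid RNA-binding proteins, copper, iron, GASA peptides, shoot cell wall, glucosinolates, galactinol, light and shade) were added after the data were seen. Genes were named by a rule: the mutated genes, the 8 largest rises and 8 largest falls called in both fits without overlap of groups and with at least 5 CPM, 2 members of each list with the smallest p (4 where at least 4 were called), and 3 genes in each direction for the difference between backgrounds. Further list members were named after their values were seen, and 2 members of the list of plastid-encoded ribosomal proteins, counted with it, are not reported here by themselves.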

Additional observations from a re-analysis of the deposited data

Results flagged for a closer look

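The fug1-3 difference in the gun1 background was set against that of fug1 against wild type, by a test of the difference of the differences in edgeR's quasi-likelihood fit. It was called for 206 genes with all libraries and for 432 without gun1 fug1 3. The values that follow are that difference in log2, from all 12 libraries, for the genes named in the text that passed.

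Plastid chaperones and their partners were among those with a positive value: CR88 at 2.48, CPN60B at 2.38, Cpn60beta2 at 1.58 and cpHsc70-1 at 1.31. The import genes AT5G01590 and TIC110 had 1.46 and 1.24, the elongation factor Ts gene emb2726 had 1.82 and EMB1865 had 2.34. Heat shock genes AT5G48570 and HSP90.1 had 3.37 and 2.81, and the galactinol synthase GolS1 had 1.45. BCB had 3.86, PCAP1 had 2.32 and SKIP5 had 4.35, the last against only 2, 1 and 1 reads in gun1. BCB passed the filter with all libraries through its reads in gun1 fug1 alone, which favours a difference, so its value here is not taken as support.

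Negative values were those of LTP4 at -3.68, MRD1 at -2.98, CKX5 at -2.41, NCED3 at -1.95, ICL, the isocitrate lyase of the glyoxylate cycle, at -1.93 and PAR1 at -1.51. ICL rose in both backgrounds, by 1.18 ± 0.27 in gun1 fug1 against gun1 (adjusted p = 0.0187) and by 3.11 ± 0.28 in fug1 against wild type (2.20e-06). Of the genes given here, CR88, CPN60B, PCAP1, SKIP5, LTP4, MRD1 and NCED3 were called in each fit that left out 1 of the 12 libraries. So was BCB, which is not taken as support for the reason given. EMB1865 and CKX5 were lost without gun1 fug1 1 alone (0.0794 and 0.0724), and the others were lost without gun1 fug1 1 and without several other single libraries. Root and seed genes moved with fug1 in plants with wild-type GUN1, where 8 of 10 and 4 of 4 tested rose (9.94% of all genes did), and their part in these differences was not tested.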

How the results depend on the processing

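With all libraries the 475 calls between gun1 fug1 and gun1 became 5 with library totals alone, 32 with only the 2 genotypes, 794 with no filter, 798 with a replicate block and 1118 with limma-voom, and 96 to 820 when 1 library was left out. Without gun1 fug1 3 the 820 calls became 413 with only the 2 genotypes, 1369 with limma-voom and 1556 with a replicate block, and 130 to 1247 when 1 further library was left out. The difference between backgrounds, 206 calls with all libraries, gave 0 with library totals alone (28 to 690 when 1 library was left out) and 634 with no filter; without gun1 fug1 3 the 432 calls became 742 with a replicate block, 1100 with no filter and 7215 with library totals alone, and 36 to 1441 when 1 further library was left out. For fug1 against wild type, 2739 calls became 8 with library totals alone and 1641 with a stricter filter, and 965 to 3714 when 1 library was left out. DESeq2 gave 486, 752, 205 and 470 calls for the first 4 of these results, and size factors of DESeq2's kind turned 248 higher and 227 lower calls into 226 and 257.

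Whether replicate numbers pair the samples was not settled, and the replicate block is given here only. Deviations from group means of gun1 fug1 and gun1 libraries with the same title number correlated at 0.037, 0.021 and -0.048 with all libraries. Other pairs ran from -0.109 to 0.093. Without gun1 fug1 3 the values were 0.176 and 0.062, and other pairs ran from -0.176 to 0.127. Deviations of only 2 libraries mirror each other, so these values cannot decide. In the deposited names gun1 fug1 1, 2 and 3 carry the numbers 2, 3 and 4. The difference in plastid share ran from -13.5 to -4.78 points, and that in mitochondrial share from -0.138 to 0.371 points, when 1 library was left out; it was -0.022 without gun1 fug1 1. With psbA, RR3 and AT2G09250 left out of all counts the differences were -13.6 and 0.287 points. Where leaving out a library left gun1 fug1 with 1, that library was assumed to vary like the other groups. Genes with few reads in gun1 fug1 3, where a read weighs far more than elsewhere, are the least certain, and the cause of its profile was not tested.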

Other observations

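Growth and wall genes beyond those with the largest changes moved in both directions, in lists drawn up after the data were seen. Beside the counts in this section, 1.61% of all genes rose and 1.48% fell with all libraries. Without gun1 fug1 3 these shares were 2.97% and 2.09%. Of 5 tested genes for GASA peptides, which are regulated by gibberellin, 1 rose and 3 fell with all libraries (median -0.89), and 2 rose and 2 fell without gun1 fug1 3 (median -0.80). GASA4 had 8.80, 10.2 and 4.80 CPM in gun1 fug1, against 17.2, 14.4 and 18.22 CPM in gun1 and differed by -0.89 ± 0.22 (adjusted p = 0.0263) and -0.80 ± 0.20 without gun1 fug1 3 (adjusted p = 0.0208). Its call with all libraries was lost without gun1 fug1 1 (0.154), gun1 fug1 2 (0.0518), gun1 1 (0.0687) or gun1 2 (0.0567). GASA1 had 84.9, 99.0 and 32.4 CPM in gun1 fug1, against 41.6, 56.7 and 36.3 CPM in gun1 and rose without gun1 fug1 3 (1.04 ± 0.20, adjusted p = 0.00343), but not with it (0.148) or when gun1 fug1 2 was left out as well (0.0583). Of 9 shoot cell wall genes 2 rose and 1 fell (median -0.26), and 3 rose and 1 fell without gun1 fug1 3 (median -0.22). LRX3, a leucine-rich repeat extensin, had 30.6, 35.8 and 33.6 CPM in gun1 fug1, against 13.9, 18.1 and 13.2 CPM in gun1, with every gun1 fug1 library above gun1, and rose by 1.15 ± 0.21 (adjusted p = 0.00442) and 1.15 ± 0.19 without gun1 fug1 3 (adjusted p = 0.00128); it stayed called without any 1 library, but not in the fit of gun1 fug1 and gun1 alone (0.0641).

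Among 11 light and shade genes PAR1 and HFR1 fell and none rose in either fit (median -0.53, and -0.57 without gun1 fug1 3). HFR1, a regulator of shade responses, had 1.67, 1.11 and 0 CPM in gun1 fug1, against 5.43, 3.52 and 3.21 CPM in gun1 and differed by -1.60 ± 0.35 (adjusted p = 0.0154) and -1.52 ± 0.33 without gun1 fug1 3 (adjusted p = 0.0100). With all libraries it was lost without gun1 fug1 1 (0.0579), gun1 fug1 2 (0.102) or gun1 1 (0.0742). In the glucosinolate list BCAT4 passed the filter through its reads in gun1 alone, which favours a difference, so it is not counted. Of the other 7 tested with all libraries (median -0.67) and 8 without gun1 fug1 3 (median -0.66), ESM1 fell and none rose. BCAT4, an aminotransferase of methionine-derived glucosinolate synthesis, had 0, 1 and 0 reads in gun1 fug1, against 13, 11 and 11 reads in gun1 (adjusted p = 0.0173, and 0.0172 without gun1 fug1 3), and was lost with all libraries without gun1 fug1 1 (0.186) or gun1 2 (0.0567). Its calls are not taken as support.

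The clock gene GI had 17.37, 19.4 and 16.8 CPM in gun1 fug1, against 7.84, 11.7 and 10.5 CPM in gun1, with all gun1 fug1 libraries above gun1, and rose by 0.86 ± 0.20 (adjusted p = 0.0219) and 0.89 ± 0.20 without gun1 fug1 3 (adjusted p = 0.0101), as 1 of 9 clock genes tested. Its call with all libraries was lost without gun1 fug1 1 (0.110), gun1 fug1 2 (0.114) or gun1 1 (0.123). The 11-library call of GI was lost when gun1 fug1 1 or gun1 fug1 2 was left out as well. ICL, as 1 of 5 oil mobilisation genes, had 59.7, 39.8 and 81.6 CPM in gun1 fug1, against 18.4, 31.5 and 27.1 CPM in gun1. ICL differed by 1.18 ± 0.27 (adjusted p = 0.0187) and 0.97 ± 0.25 without gun1 fug1 3 (adjusted p = 0.0297), and its call with all libraries was lost without gun1 fug1 1 (0.110) or gun1 1 (0.0968). The 11-library call of ICL was lost when gun1 fug1 1, gun1 1 or gun1 3 was left out as well. It was also lost there with gun1 fug1 and gun1 alone and with the root level as a covariate. Of 6 tested genes of the abscisic acid response, none was called with all libraries and LTI65 rose without gun1 fug1 3. LTI65, a dehydration-induced protein, had 10.4, 3.99 and 1.1997 CPM in gun1 fug1, against 2.96, 1.46 and 3.21 CPM in gun1, which overlap, and differed by 1.36 (adjusted p = 0.0687) and 1.51 without gun1 fug1 3 (0.0259), a call lost without gun1 fug1 1 or gun1 2 (0.580 and 0.0960). In either fit no gene was called of 6 tested for mitochondrial dysfunction, 5 for flavonoids, 4 (6 without gun1 fug1 3) for chloroplast development regulators and 10 for the plastid-encoded NDH complex.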
